A study of Mus musculus with 16 samples.

Results

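The 10 genes described here are Ifit1, Ifit2, Ifit3, Ifit3b, Isg15, Usp18, Rsad2, Mx1, Mx2 and Ifi44, antiviral effectors whose transcription interferons switch on. They were chosen by name out of 45777 genes listed, and all 10 were among the 16209 genes with at least 1 count in every tumor, to which the tests were limited. RNA had been sequenced from allografts of B16F10, a melanoma line of C57BL/6 origin, grown under the skin of young C57BL/6J mice (lean) or leptin-deficient C57BL/6J-ob/ob mice (obese), which were of the same age at injection. Tumors were taken before therapy or after repeated injections of etoposide (ETS), a topoisomerase II inhibitor that causes DNA breaks, with 4 tumors in each of the 4 groups and 16 in all. Every tumor carried the same grafted line, so the ob/ob genotype belonged to the host and not to the melanoma cells. The comparison group for ETS was titled ctrl and described in the paper as pre-chemotherapy. An effect of the drug and one of the days that passed therefore cannot be told apart.

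Total counts per tumor lay between 47199949 and 61655287. The 10 melanocyte markers, none of them at 0 in any group, summed to 24328 to 30705 CPM (counts scaled to a common library size) in lean tumors before therapy and 32209 to 38535 CPM after ETS. In obese tumors they summed to 15167 to 20709 CPM before therapy, below all lean tumors, and 16082 to 37966 CPM after ETS. By edgeR's quasi-likelihood test, 5 of the 10 were called lower in obese tumors before therapy. With ETS 5 rose in obese and 3 in lean tumors, and for the difference of the ETS effects 0 were called. Of all tested genes 12.9% were called lower and 13.5% higher in obese tumors before therapy. With ETS 21.2% rose in obese tumors and 21.0% in lean tumors, a share near the 3 of 10 markers. For the difference 10.1% were called lower and 6.35% higher. Of 14 tested p53 targets, 13 rose after ETS in lean tumors and 11 in obese tumors. The DNA damage response gene Cdkn1a rose by 3.44 on the log2 scale in the former (adjusted p = 3.44e-07) and by 1.27 in the latter (adjusted p = 0.000376), by edgeR's quasi-likelihood test. Before therapy 9 of the 14 p53 targets were called higher and 0 lower in obese than in lean tumors. For the difference of the ETS effects 7 of the 14 were called higher in lean tumors and 0 lower. Lep, the gene mutated in the obese hosts, had counts of 0 to 18 in lean tumors before therapy and 0 in all lean tumors after ETS. It had counts of 6 to 537 and 8 to 408 in obese tumors before and after ETS, and such counts do not read the mutation.

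Type I interferons signal through IFNAR1 and IFNAR2 to the kinases JAK1 and TYK2, which activate a transcription factor complex that holds STAT2 and IRF9. This complex binds the interferon-stimulated response element (ISRE) in promoters such as those of the Ifit genes and Isg15. Interferon gamma instead signals through its own receptor to factors that bind gamma-activated sites (GAS), and the response genes of the pathways overlap in part. In tumors such genes are expressed by the cancer cells as well as by immune and stromal cells, and in bulk RNA fewer cells of a type and less RNA per cell cannot be told apart.

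The Ifit genes lie next to each other on mouse chromosome 19, where the span from the start of Ifit2 to the end of Ifit1 covers 34550550 to 34650009 (99.5 kb) in GRCm38.p6, the mm10 build, with Ifit3 and Ifit3b between them. Isg15 lies at chr4:156199424-156200818, Rsad2 at chr12:26442743-26456452 and Ifi44 at chr3:151730922-151749910. Usp18 is at chr6:121245906-121270917, and Mx1 and Mx2 are neighbors at chr16:97447035-97462906 and chr16:97536081-97560901. RefSeq annotates both Mx genes of the C57BL/6 reference as transcribed pseudogenes and the other 8 members as protein coding. Ifit3 and Ifit3b are near copies, and 31.7% of the 100-base windows of the Ifit3 transcripts occur without a mismatch in Ifit3b, so the division of reads between this pair is uncertain. The spans of Ifit1 and Ifit3b lie within that of Ifit1bl1 (chr19:34592888-34662981), and those of Isg15 and Usp18 overlap the noncoding genes Gm46878 and Gm44148. The libraries were strand-specific, but whether the counting used the strand is not given in the sources used here, so reads of overlapping genes may be shared.

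Promoter windows from 250 bases before to 50 bases after the transcription start were taken from RefSeq (GRCm38.p6) for 7 of the 10 genes. No window was at hand for Usp18, Mx1 and Mx2. The core ISRE letters searched were GAAANNGAAA, or TTTCNNTTTC on the other strand. They occurred in 5 of the 7, namely Isg15, Rsad2, Ifit3, Ifit3b and Ifit1, where any window of a gene counts, against 3.44% of all 32851 windows. Among genes with a window, 11 of 20 interferon ligands, 19 of 39 other type I interferon response genes and 7 of 11 genes preferring interferon gamma held them. So did 1 of 10 receptors and signal transducers, 1 of 7 interferon regulatory factors, 1 of 7 negative regulators, 0 of 4 ISG15 conjugation enzymes, 2 of 4 genomic neighbors and 1 of 11 p53 targets. The 2 windows of Ifit2 and the window of Ifi44 did not hold these letters. The GAS letters TTCNNNGAA, found in 8.30% of all windows, occurred only in 1 window of Ifit2. The matches are shown because these genes moved together in the tumors, with the ISRE letters in capitals and the flanking 20 bases on each side in lower case, 5′ to 3′ on the strand of the gene. The 3 matches of Isg15 overlap one another, from 78 to 57 bases before the start. The stretch of Ifit3 and that of Ifit3b have the same 84 letters.
Isg15 (chr4:156200855-156200916, - strand): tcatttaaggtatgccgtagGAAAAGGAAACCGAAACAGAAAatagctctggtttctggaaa
Rsad2 (chr12:26456543-26456592, - strand): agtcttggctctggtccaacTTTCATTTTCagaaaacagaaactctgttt
Ifit3 (chr19:34583353-34583436, + strand): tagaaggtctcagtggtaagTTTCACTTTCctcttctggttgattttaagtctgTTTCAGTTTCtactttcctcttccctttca
Ifit3b (chr19:34607749-34607832, + strand): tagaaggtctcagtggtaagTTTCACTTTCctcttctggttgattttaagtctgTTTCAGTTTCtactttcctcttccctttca
Ifit1 (chr19:34640765-34640833, + strand): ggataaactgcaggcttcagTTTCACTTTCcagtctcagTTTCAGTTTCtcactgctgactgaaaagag

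Obese tumors were compared with lean tumors before therapy to ask whether the level at which therapy began differed between hosts. All 10 genes were lower in obese tumors, by between 2.49-fold (Ifit2) and 56.6-fold (Ifi44), and for none of them did a tumor of one group reach the range of the other. The next paragraphs give each gene in every tumor, in the order lean before therapy, lean after ETS, obese before therapy and obese after ETS, as CPM scaled by TMM, a factor that corrects for library composition. Changes are log2 fold changes ± SE from edgeR's quasi-likelihood test over all 16 tumors, with Benjamini-Hochberg adjusted p-values over the 16209 genes.

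IFIT proteins are tetratricopeptide repeat proteins that bind viral RNA and block its translation. Ifit1 stood at 26.7, 32.98, 21.7 and 18.3 CPM in lean tumors before therapy, and at 20.2, 13.4, 32.8 and 28.7 CPM after ETS. In obese tumors it stood at 2.34, 2.61, 2.08 and 0.901 CPM before therapy and at 22.99, 25.4, 11.97 and 19.8 CPM after ETS. Lean tumors before and after ETS had overlapping ranges, whereas obese tumors before therapy all lay below the lowest value of any other group. The means for Ifit1 were 24.9 ± 6.39 and 23.8 ± 8.72 CPM in lean tumors and 1.98 ± 0.753 and 20.05 ± 5.85 CPM in obese tumors before and after ETS (SD, n = 4). Ifit1 was lower in obese than in lean tumors before therapy, with a log2 difference of -3.65 ± 0.36 (adjusted p = 4.71e-06) and rose in obese tumors by 3.34 ± 0.36 (adjusted p = 2.53e-05). In lean tumors its change was -0.07 ± 0.32 (95% confidence interval -0.74 to 0.61; adjusted p = 0.8799).

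For Ifit3 the lean tumors had 67.6, 104, 79.2 and 72.1 CPM before therapy and 50.5, 40.2, 51.9 and 56.1 CPM after ETS, and the obese tumors had 6.08, 6.38, 3.57 and 2.37 CPM and 58.3, 59.3, 22.9 and 35.7 CPM. The level of Ifit3b was 23.1, 37.4, 26.5 and 24.4 CPM in lean tumors and 21.1, 16.02, 21.5 and 21.8 CPM after ETS. The matching levels in obese tumors were 1.65, 1.81, 1.05 and 0.777 CPM and 23.3, 22.6, 8.37 and 14.3 CPM. In both genes the obese tumors before therapy lay below all others and the groups after ETS overlapped. The lean tumors before therapy lay above all other tumors for Ifit3, and for Ifit3b they overlapped with obese tumors after ETS. The log2 difference of obese from lean tumors before therapy was -4.14 ± 0.34 for Ifit3 (adjusted p = 9.02e-07) and -4.40 ± 0.34 for Ifit3b (adjusted p = 4.74e-07). With ETS in obese tumors they rose by 3.26 ± 0.33 (adjusted p = 1.83e-05) and 3.70 ± 0.33 (adjusted p = 7.57e-06), the latter being the largest rise of the 10 genes in obese tumors. The changes in lean tumors, -0.70 ± 0.30 for Ifit3 and -0.47 ± 0.29 for Ifit3b, did not pass the threshold (adjusted p = 0.0687 and 0.201), although the ranges before and after ETS did not overlap. For Ifit3 this call depended on the processing, since its adjusted p lay between 0.00634 and 0.1003 over 8 alternatives and passed the threshold in 4 of them.

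Ifit2, the family member whose product has been linked to apoptosis as well as to RNA binding, showed smaller changes. Ifit2 was measured at 77.5, 106, 73.7 and 71.6 CPM before and 45.7, 37.6, 45.1 and 37.6 CPM after ETS in lean tumors, and at 36.01, 38.2, 29.7 and 28.1 CPM before and 46.6, 47.7, 34.3 and 42.2 CPM after ETS in obese tumors. The means for Ifit2 were 82.2 ± 15.9 and 41.5 ± 4.55 CPM in lean tumors and 33.01 ± 4.85 and 42.7 ± 6.08 CPM in obese tumors before and after ETS (SD, n = 4). Obese tumors before therapy overlapped with both groups after ETS, and lean tumors before therapy stood above all other tumors. The difference of obese from lean tumors before therapy was -1.32 ± 0.15 (adjusted p = 1.49e-05), the smallest of the 10 genes. Ifit2 fell in lean tumors after ETS, with a log2 change of -0.99 ± 0.14 (adjusted p = 0.000124). In obese tumors its change of 0.37 ± 0.14 did not pass the threshold (95% confidence interval 0.07 to 0.68; adjusted p = 0.0506). That p was near the threshold and lay between 0.0228 and 0.189 over 8 alternatives, with 4 of them below 0.05.

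ISG15 is a ubiquitin-like protein that is conjugated to other proteins, and USP18 removes it and also restrains signaling at the type I interferon receptor. Isg15 stood at 23.4, 38.4, 17.4 and 19.5 CPM in lean tumors before therapy, and at 17.3, 16.7, 19.7 and 21.7 CPM after ETS. In obese tumors it stood at 3.72, 2.93, 2.29 and 2.28 CPM before therapy and at 23.2, 26.6, 10.1 and 25.8 CPM after ETS. For Usp18 the lean tumors had 18.8, 28.2, 14.8 and 17.97 CPM before therapy and 16.04, 9.93, 8.81 and 10.03 CPM after ETS, and the obese tumors had 1.47, 1.695, 0.72 and 0.742 CPM and 12.2, 17.6, 3.74 and 12.8 CPM. For both genes the obese tumors before therapy lay apart from and below the other 3 groups, which overlapped each other. The means for Usp18 were 19.9 ± 5.78 and 11.2 ± 3.27 CPM in lean tumors and 1.16 ± 0.4998 and 11.6 ± 5.77 CPM in obese tumors before and after ETS (SD, n = 4). The difference of obese from lean tumors before therapy was -3.14 ± 0.31 for Isg15 (adjusted p = 4.88e-06) and -4.11 ± 0.44 for Usp18 (adjusted p = 1.06e-05). After ETS they had risen by 2.94 ± 0.31 (adjusted p = 2.35e-05) and 3.33 ± 0.43 (adjusted p = 6.85e-05). In lean tumors neither change passed the threshold (-0.39 ± 0.28 for Isg15, adjusted p = 0.281, and -0.83 ± 0.38 for Usp18, adjusted p = 0.0891), though that of Usp18 did in 3 of 8 alternatives.

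Rsad2 encodes viperin, a radical S-adenosylmethionine enzyme that makes a chain-terminating nucleotide. The level of Rsad2 was 85.2, 128, 90.5 and 103 CPM in lean tumors and 94.9, 63.9, 97.02 and 77.5 CPM after ETS. The matching levels in obese tumors were 19.3, 14.6, 9.33 and 16.1 CPM and 93.2, 110.0, 56.7 and 81.6 CPM. The values of lean tumors before and after ETS and of obese tumors after ETS overlapped, and the obese tumors before therapy lay below them. Rsad2 was lower in obese tumors before therapy, with a difference of -2.78 ± 0.24 (adjusted p = 1.17e-06). It rose with ETS in obese tumors by 2.52 ± 0.24 (adjusted p = 9.31e-06) and changed in lean tumors by -0.29 ± 0.22 (adjusted p = 0.303).

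The Mx genes encode dynamin-like GTPases that hinder virus replication, and most inbred laboratory strains carry defective alleles. Mx1 was measured at 6.94, 20.1, 11.5 and 9.07 CPM before and 2.103, 1.46, 2.36 and 1.72 CPM after ETS in lean tumors, and at 0.848, 1.04, 0.335 and 0.283 CPM before and 3.83, 4.92, 1.896 and 6.81 CPM after ETS in obese tumors. Mx2 stood at 2.79, 7.62, 6.37 and 3.42 CPM in lean tumors before therapy, and at 3.24, 1.82, 3.204 and 3.12 CPM after ETS. In obese tumors it stood at 0.972, 0.977, 0.285 and 0.777 CPM before therapy and at 3.45, 4.53, 2.77 and 5.71 CPM after ETS. For Mx1 the lean tumors before therapy stood above all others, whereas for Mx2 they overlapped both groups after ETS. Mx1 fell in lean tumors by 2.64 ± 0.45 on the log2 scale (adjusted p = 0.000406), while the change of Mx2, -0.83 ± 0.38, did not pass the threshold (adjusted p = 0.0885). Both were lower in obese tumors before therapy, with differences of -4.26 ± 0.50 for Mx1 (adjusted p = 2.28e-05) and -2.75 ± 0.41 for Mx2 (adjusted p = 0.000201). Both rose in obese tumors after ETS, by 2.81 ± 0.47 (adjusted p = 0.000439) and 2.45 ± 0.41 (adjusted p = 0.000393).

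Ifi44, an interferon-induced gene whose product is less well defined, had the widest span. For Ifi44 the lean tumors had 9.53, 16.6, 10.9 and 10.3 CPM before therapy and 2.76, 1.48, 1.58 and 2.38 CPM after ETS, and the obese tumors had 0.227, 0.299, 0.167 and 0.141 CPM and 3.28, 2.72, 0.956 and 1.98 CPM. The means for Ifi44 were 11.8 ± 3.22 and 2.05 ± 0.624 CPM in lean tumors and 0.209 ± 0.0702 and 2.23 ± 1.005 CPM in obese tumors before and after ETS (SD, n = 4). Lean tumors before therapy lay above and obese tumors before therapy below all others, and the groups after ETS overlapped. Its counts were low in obese tumors before therapy, where the lowest was 8. The difference before therapy was -5.82 ± 0.42 (adjusted p = 2.91e-07), the rise in obese tumors 3.42 ± 0.40 (adjusted p = 3.79e-05) and the change in lean tumors -2.53 ± 0.35 (adjusted p = 7.16e-05).

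**Figure D1:**
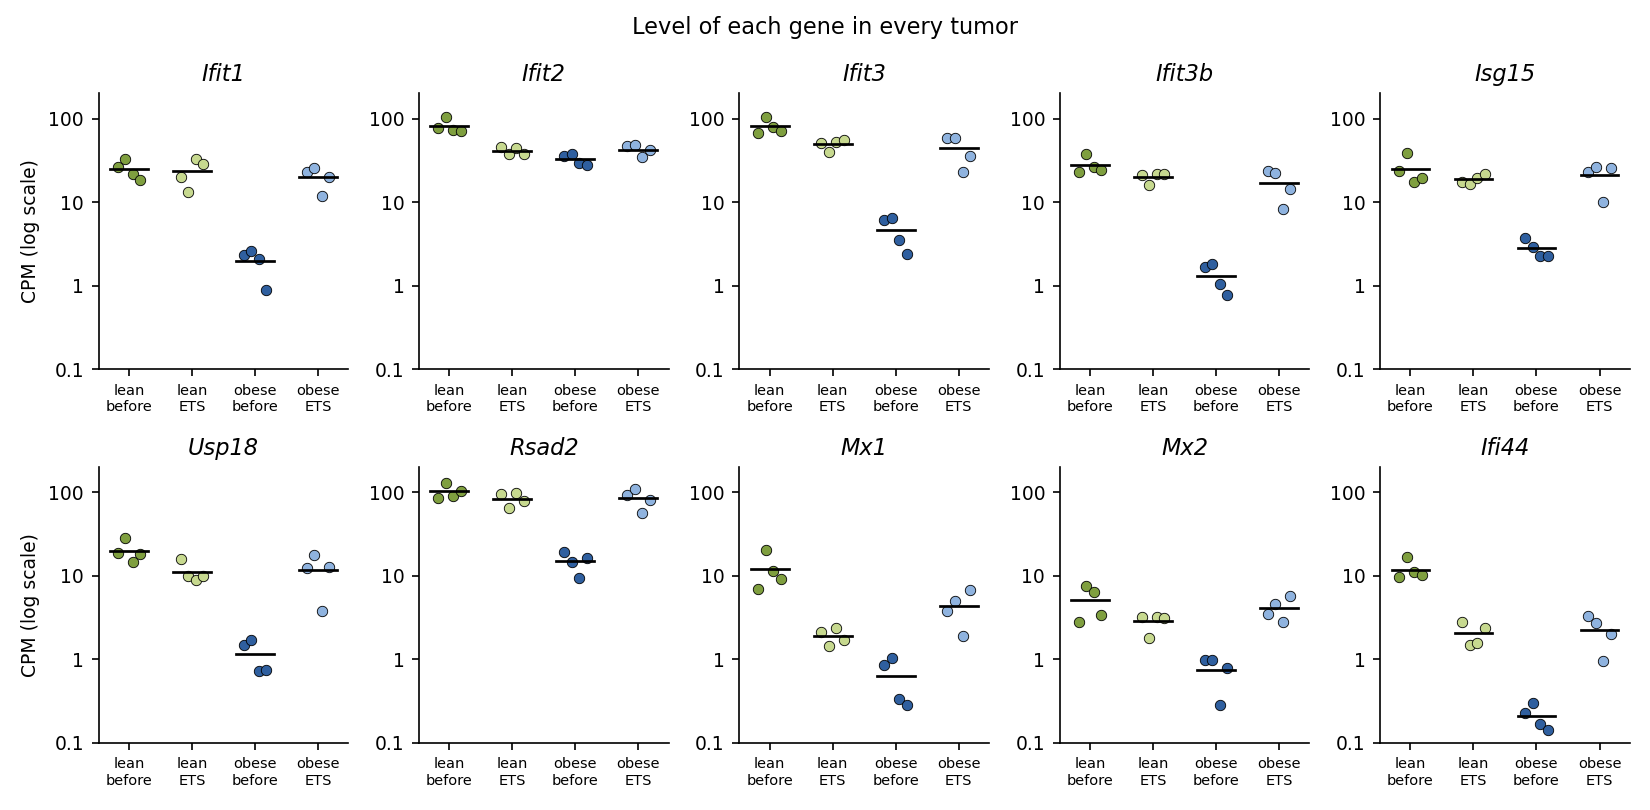
Level of each of the 10 genes in CPM on a log axis, with 1 point per tumor, 4 tumors per group, and a bar at the group mean. Obese tumors before therapy lay below lean tumors before therapy for all 10 genes, whereas for Ifit2 they came close to both groups after ETS.

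Taking the 10 genes together, 10 of 10 were called lower and 0 higher in obese than in lean tumors before therapy at an adjusted p under 0.05, where 12.9% of all tested genes were called lower and 13.5% higher. The ranges were apart in that direction for 10 of 10 members and 14.4% of all genes. The median difference of the members was -3.88 on the log2 scale, and that of all tested genes was 0.02. With ETS in obese tumors 9 of 10 were called higher and 0 lower, compared with 21.2% and 19.0% of all genes, and the ranges were apart upward for 9 of 10 against 16.4%. The median change was 3.10 for the members and 0.01 for all genes. The comparisons share the obese tumors before therapy, so their values enter both, as those of lean tumors before therapy enter the comparison below.

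With ETS in lean tumors 3 of 10 (Ifit2, Mx1 and Ifi44) were called lower and 0 higher, a share near the 22.8% of all genes called lower, with 21.0% called higher. The ranges were apart downward for 5 of 10 members, the called 3 with Ifit3 and Ifit3b, and for 20.3% of all genes. All 10 fitted changes were negative, with a median of -0.76 against -0.01 for all genes, and ran from -2.64 (Mx1) to -0.07 (Ifit1). The number called was 8 when log2 of the deposited TPM (transcript level per length) plus 1 was tested with limma, a scale on which 44.9% of all genes were called lower and the median of all genes itself moved by -0.28. The members' median change relative to that shift was -0.67. The 2 not called there were Ifit1 and Isg15.

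The difference between the ETS effects, lean minus obese, was tested directly, and all 10 genes passed, with the change in lean tumors below that in obese tumors. Among all tested genes 10.1% were called lower and 6.35% higher in this test. The differences ran from -1.36 ± 0.20 for Ifit2 (adjusted p = 0.00041) to -5.94 ± 0.53 for Ifi44 (adjusted p = 1.07e-05), with a median of -3.69 for the members and 0.05 for all genes. Mx1 came next to Ifi44 at -5.45 ± 0.66 (adjusted p = 7.34e-05). Leaving out any single tumor, or any of the 6 other alternatives that allow this test, kept all 10 calls. The value tested equals the difference of obese from lean tumors before therapy minus that after ETS. It is therefore not separate from the result before therapy, where the members' median was -3.88.

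After ETS, the ranges of obese and lean tumors overlapped for all 10 genes. Most tested genes overlapped as well, since 1035 of 16209 lay apart upward and 1111 downward. By edgeR's quasi-likelihood test 0 of the 10 were called in either direction, where 3.28% of all genes were called higher and 2.30% lower. In that test Mx1 had the lowest unadjusted p of the 10, 0.0156, with a log2 difference of 1.19 ± 0.44 and an adjusted p of 0.109. DESeq2, which called 6.94% of all genes higher, called this gene (adjusted p = 0.0395), and the exact test and limma called none. The other 9 differences lay between -0.25 (Ifit1) and 0.53 (Mx2). Their 95% confidence intervals were not narrow, for example -0.76 to 0.86 for Usp18 and -0.26 to 0.35 for Ifit2. Differences within those intervals were not excluded with 4 tumors per group.

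**Figure D2:**
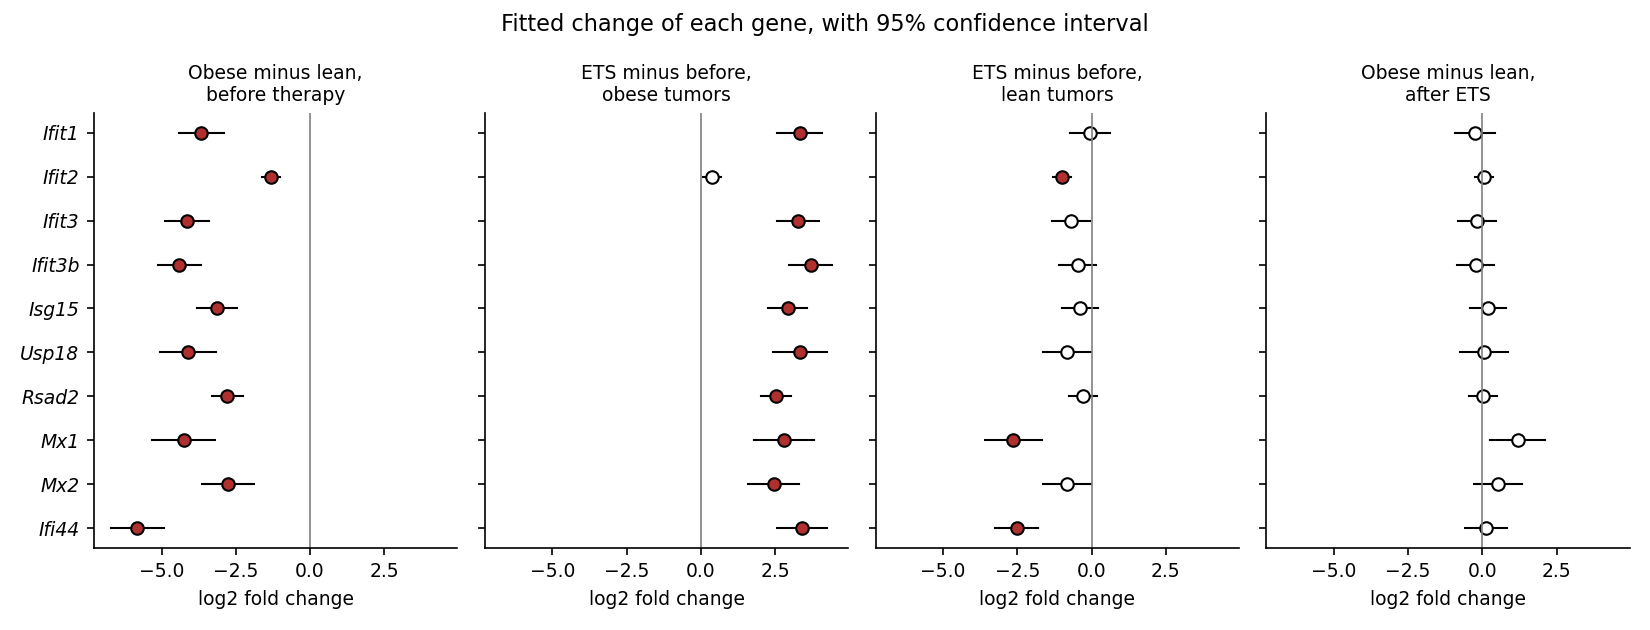
Fitted log2 fold change of each gene (points) with its 95% confidence interval (lines) in 4 comparisons, filled where the adjusted p was under 0.05. All 10 points are filled and negative before therapy, 9 of 10 are filled and positive for ETS in obese tumors, 3 are filled for ETS in lean tumors and 0 are filled after ETS.

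Transcript levels between genes were compared in TPM. In lean tumors before therapy Ifit3 led at 88.4 ± 21.1 TPM (SD, n = 4), followed by Isg15 at 70.2 ± 27.5 and Rsad2 at 58.2 ± 12.9, and Mx2 was lowest at 4.57 ± 2.26. In that group the ranges of all 9 pairs of neighbors in this order overlapped. Ranges leave out that both genes of a pair were read in the same tumors. Ifit3, for example, was above Isg15 in each tumor of that group, whereas Isg15 and Rsad2 changed order between tumors. Differences between neighbors were not tested. In obese tumors before therapy the order was different, with Ifit2 first at 16.4 ± 2.88 TPM, then Rsad2 at 7.69 ± 2.20 and Isg15 at 7.29 ± 1.92, and Ifi44 last at 0.134 ± 0.0551. The range of Ifit2 lay apart from that of Rsad2, and the range of Ifit3 from that of Ifit1, whereas the other 7 pairs of neighbors overlapped. Ifit2 made up 39.8% of the summed mean TPM of the 10 genes in that group, compared with 12.5% in lean tumors before therapy, 9.49% in lean tumors after ETS and 9.87% in obese tumors after ETS. After ETS, the genes ranked 1 to 3 were Ifit3 (42.1 ± 8.89 TPM), Isg15 (41.7 ± 7.98 TPM) and Rsad2 (36.9 ± 9.26 TPM) in lean tumors. In obese tumors they were Isg15 (51.3 ± 17.3 TPM), Rsad2 (40.8 ± 7.62 TPM) and Ifit3 (39.8 ± 12.4 TPM). Ifit2 came next in both, its range apart from that of the third-ranked gene, followed by Ifit3b, Ifit1 and Usp18 with overlapping neighbors, and the Mx genes and Ifi44 were lowest.

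**Figure D3:**
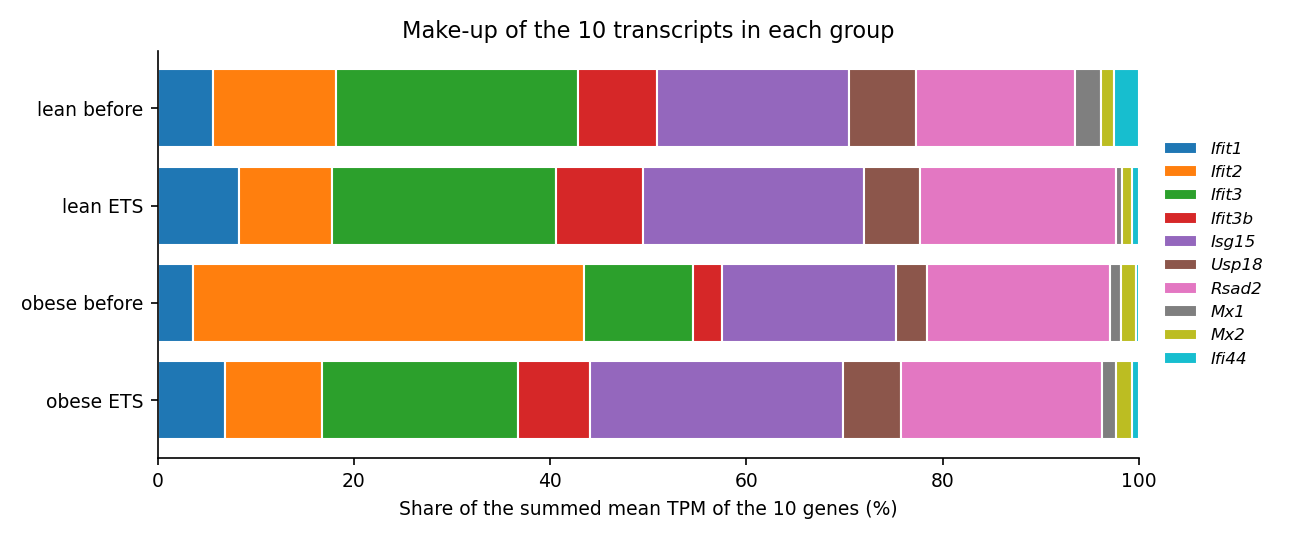
Share of each gene in the summed mean TPM of the 10 genes, 1 bar per group. Ifit2 took 39.8% in obese tumors before therapy and between 9.49% and 12.5% in the other groups.

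The ratio of Ifit2 to Ifit3 in TPM, which was picked after the values had been seen and is given as a description, was 2.99, 2.96, 4.24 and 6.10 in the obese tumors before therapy. It lay between 0.336 and 0.758 in all 12 other tumors. The ratio of the near copies Ifit3b and Ifit3 ranged from 0.267 to 0.297 in obese tumors before therapy, from 0.310 to 0.344 in lean tumors before therapy and from 0.362 to 0.411 after ETS in both hosts. Usp18 to Isg15 ran from 0.314 to 0.393 in lean tumors before therapy and from 0.133 to 0.247 in obese tumors before therapy. After ETS it ran from 0.191 to 0.396 in lean and from 0.158 to 0.283 in obese tumors.

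Within groups the 10 genes varied together from tumor to tumor. Lean tumor 2 before therapy was the highest of its group for 10 of 10 genes, and obese tumor 3 after ETS the lowest for 10 of 10. Obese tumor 2 before therapy was the highest of its group for 8 genes, and lean tumor 2 after ETS the lowest for 8. The correlations between 2 members of their deviations from the group means, over 16 tumors that share the library of each point, had a median of 0.75 over 45 pairs. They ranged from 0.34 (Ifit1 with Mx2) to 0.99 (Ifit3 with Ifit3b, whose reads can be shared). The summed level of the 10 genes was 281, 497, 337 and 319 TPM in lean tumors before therapy, and it was 188, 131, 220 and 200.3 TPM after ETS. It was 50.4, 49.4, 32.6 and 32.1 in obese tumors before therapy and 209, 240.1, 128 and 221 after ETS.

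Outside the members, the gene whose profile over the 16 tumors was most like the members' mean was Rtp4, a chaperone of receptor transport that is itself induced by interferon, with a Pearson r of 0.99 among 13305 genes averaging 1 CPM or more. Dhx58 (0.98) and Ifih1 (0.97), helicases that sense viral RNA, Xaf1 (0.98) and Ifitm3 (0.98), which blocks virus entry, were the other 4 of the 5 nearest. Rtp4 had a mean of 31.8 ± 7.81 CPM in lean tumors before therapy and 10.9 ± 0.803 CPM after ETS (SD, n = 4). In obese tumors it had 1.34 ± 0.472 CPM before therapy and 14.3 ± 4.61 CPM after ETS. For single members the most alike gene was Oasl1 for Ifit1 and Isg15, Lgals3bp for Ifit3, Ifit3b and Rsad2, Ifitm3 for Usp18, Helz2 for Mx1, Xaf1 for Mx2 and Phf11d for Ifi44, with r between 0.94 and 0.99. Ifit2 was nearest to Nmi (0.97) and had the lowest correlation of the 10 with the members' mean (0.82).

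Transcripts of the interferons themselves were at the edge of detection for type I. Of 13 Ifna genes 11 had a count of 0 in all 16 tumors, and the other two, Ifna5 and Ifna13, had a count of 2 in 1 tumor each. Ifnb1 had a count of 4 in 1 lean tumor before therapy, a count of 3 in 1 obese tumor after ETS and 0 in the other 14. A count of 0 allows up to 3 counts, or between 0.0461 and 0.0620 CPM depending on the tumor, for counting error only. Ifnz, the only ligand with a count in all tumors, had counts of 1 to 8. It was called higher after ETS in lean tumors (log2 fold change 1.54, adjusted p = 0.0147). Ifng, encoding interferon gamma, had counts of 83, 176, 65 and 147 in lean tumors before therapy, and in each of the 3 other groups 1 tumor had a count of 4 and the others had 0. Having counts of 0, Ifng was not tested. The counts of Ifng in lean and obese tumors were apart before therapy. Lean tumors after ETS, where Ifng was at 0 to 4 counts, had a mean log2 CPM of the members of 3.38 to 3.89, below the 4.44 to 5.21 of lean tumors before therapy and above the 0.61 to 1.50 of obese tumors before therapy.

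Of the 12 receptors and signal transducers tested, 9 were lower and 0 higher in obese than in lean tumors before therapy. With ETS 7 fell and 1 rose in lean tumors, whereas in obese tumors 7 rose and 0 fell. After ETS 1 of 12, Ifngr1, differed between hosts. With ETS, Stat2 changed by -1.93 in lean and by 0.84 in obese tumors on the log2 scale (adjusted p = 1.32e-05 and 0.00566), and Irf9 by -0.67 and 1.29 (adjusted p = 0.00503 and 8.32e-05). Of the genes for the type I receptor, Ifnar1 differed between obese and lean tumors by -0.40 before therapy (adjusted p = 0.00393) and Ifnar2 by -0.79 (adjusted p = 9.24e-05).

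Of 7 tested interferon regulatory factors other than Irf9, all 7 were lower in obese tumors before therapy, 6 fell with ETS in lean hosts, and 4 rose with it in obese hosts. Irf7, which amplifies type I interferon production, rose in obese tumors by 3.79 (adjusted p = 0.0001098), and Irf8, a factor of myeloid cells, by 1.92 (adjusted p = 0.00386). Irf1, which interferon gamma induces, fell in lean tumors with a log2 change of -3.46 (adjusted p = 1.47e-06), and its change in obese tumors was 0.36 (adjusted p = 0.294). Irf5 differed between hosts before therapy by -3.31 (adjusted p = 0.000379). Among 8 negative regulators other than Usp18, 4 were lower in obese tumors before therapy, 3 fell with ETS in lean hosts, and in obese hosts 5 rose and 1 fell. Socs1, which inhibits JAK kinases, showed the largest difference between ETS effects, -4.97 (adjusted p = 1.07e-05). Its changes were -3.38 in lean and 1.60 in obese tumors (adjusted p = 4.75e-06 and 0.00162).

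The 4 enzymes that attach ISG15 are set beside Isg15 here, though differences between them and Isg15 were not tested. All 4 were lower in obese tumors before therapy and fell with ETS in lean tumors, in which Isg15 did not pass the threshold. The activating enzyme Uba7 fell with a log2 change of -1.81 (adjusted p = 8.88e-05), the conjugating enzyme Ube2l6 with -2.06 (adjusted p = 0.0002297) and the ligase Herc6 with -1.67 (adjusted p = 3.71e-07). In obese tumors 2 of the 4 rose with ETS, Uba7 by 1.75 (adjusted p = 0.000183) and Trim25 by 0.95 (adjusted p = 0.000166). Ube2l6 and Herc6 changed by 0.52 and 0.07 there (adjusted p = 0.206 and 0.636). Cmpk2, the neighbor of Rsad2, fell in lean tumors with a log2 change of -1.69 (adjusted p = 9.61e-05) and rose in obese tumors by 1.59 (adjusted p = 0.000229), so the fall in lean tumors was called for Cmpk2 and not for Rsad2. That difference between the genes was not tested. Ifit1bl1, Ifit1bl2 and Ifi44l each had a count of 0 in some tumor and were not tested.

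Of 50 other type I interferon response genes, 48 were tested, and 46 were lower and 1 higher in obese tumors before therapy. With ETS 45 rose and 1 fell in obese tumors, and 37 fell and 0 rose in lean tumors, with a median of -1.58 against -0.76 for the 10 members. For the difference of the effects 45 were called, all lower in lean, and after ETS 3 were higher and 1 lower in obese tumors. Oas3, an oligoadenylate synthetase that senses double-stranded RNA, rose in obese tumors by 4.91 (adjusted p = 0.000121) and fell in lean tumors with a log2 change of -3.15 (adjusted p = 0.000757). Of 18 genes that respond preferentially to interferon gamma, 15 were tested. All 15 were lower in obese tumors before therapy and fell with ETS in lean tumors, where their median was -4.88, and 7 rose in obese tumors, where the median of the 15 was 1.81. Gbp5, a guanylate-binding protein, went from 49.02 ± 16.8 to 1.56 ± 0.858 CPM in lean tumors and from 0.417 ± 0.559 to 3.01 ± 0.98 CPM in obese tumors (SD, n = 4). Cxcl9, a chemokine that draws T cells, fell in lean tumors with a log2 change of -5.40 (adjusted p = 0.000322), and its change in obese tumors was 2.07 (adjusted p = 0.0517).

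**Figure D4:**
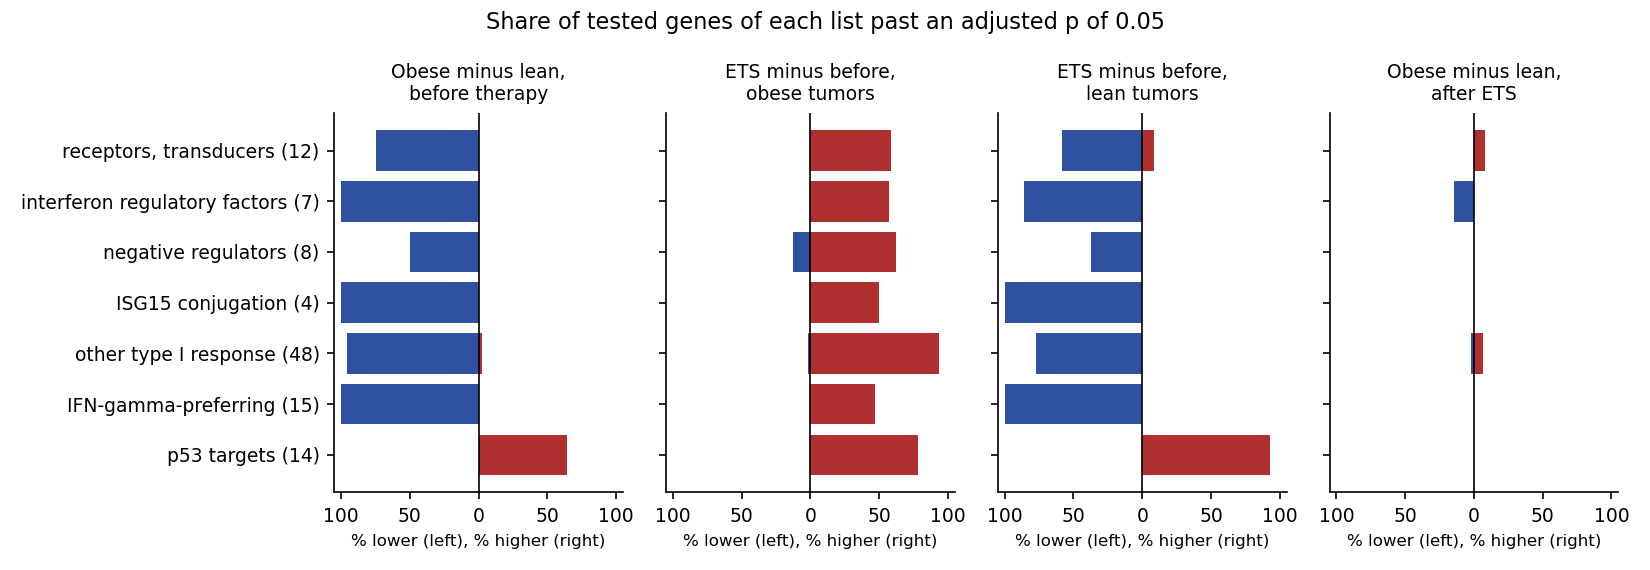
Share of the tested genes of each list (number in parentheses) that were called lower (left, blue) or higher (right, red) at an adjusted p under 0.05 in 4 comparisons. Of 48 other type I response genes, 45 were called higher after ETS in obese tumors, and of 15 genes that prefer interferon gamma 7 were.

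Markers of T and NK cells, macrophages and dendritic cells differed between the groups as well. The summed level of 12 T and NK cell markers was 53.3 to 89.6 CPM in lean tumors before therapy, 0.358 to 3.39 after ETS, 0.0353 to 1.93 in obese tumors before therapy and 1.17 to 5.27 after ETS. Of these markers Cd3e and Ncr1 were at 0 in all obese tumors before therapy, and none was tested because each had a count of 0 in some tumor. The 10 macrophage markers summed to 417 to 1324 CPM in lean tumors before therapy and 50.2 to 433 after ETS. In obese tumors they summed to 42.9 to 265 CPM before therapy and 374 to 1139 after ETS, with no marker at 0 in any group. The 7 plasmacytoid dendritic cell markers summed to 6.54 to 14.1 CPM and 2.84 to 4.45 in lean tumors, and 2.70 to 3.35 and 4.93 to 8.58 in obese tumors, before and after ETS. Siglech and Klk1 were at 0 in all lean tumors after ETS. The 7 conventional dendritic cell markers gave 15.6 to 25.1 and 4.26 to 6.66 CPM in lean tumors, and 6.74 to 9.95 and 5.62 to 11.3 in obese tumors. The part of these cells in the members' levels was not tested.

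The 10 fibroblast markers summed to 585 to 2322 and 117 to 655 CPM in lean tumors before and after ETS, and to 113 to 691 and 686 to 5937 in obese tumors. Of these fibroblast markers 10 of 10 rose with ETS in obese tumors, 6 fell in lean tumors and 2 were lower in obese tumors before therapy. Of 9 tested macrophage markers 7 rose with ETS in obese tumors, 7 fell in lean tumors and 8 were lower in obese tumors before therapy. The 9 endothelial markers summed to 170 to 198 CPM in lean tumors before therapy and 155 to 180 CPM after ETS. In obese tumors they summed to 128 to 166 CPM before therapy, below lean tumors before therapy, and to 186 to 408 CPM after ETS, above obese tumors before therapy, with 6 of 9 called higher. The 8 adipocyte markers gave 35.0 to 71.1 and 9.52 to 29.6 CPM in lean tumors, and 17.7 to 138 and 86.0 to 293 CPM in obese tumors, before and after ETS. The 6 B cell markers lay between 1.14 and 2.76 CPM in all tumors, the 8 neutrophil markers between 0.931 and 38.1 and the 8 skeletal muscle markers between 1.39 and 473. The part of these cells in the members' levels was not tested either.

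Within groups, tumors with high levels of the members had high sums of markers in some cases and low sums in others. Lean tumor 2 before therapy, highest of its group for all 10 genes, had the highest count of Ifng there, 176, and came next to the highest for macrophage markers, 1156 CPM, and for T and NK cell markers, 89.1 CPM. Obese tumor 2 before therapy, highest for 8, had the highest sums of its group for macrophage markers, 265 CPM, and for T and NK cell markers, 1.93 CPM. Lean tumor 1 before therapy, lowest of its group for 6 of the 10 genes, had the highest sum of macrophage markers there, 1324 CPM, and lean tumor 2 after ETS, lowest for 8, had the highest of its group, 433 CPM. Obese tumor 4 before therapy, lowest for 7, had the lowest sums of its group for macrophage markers, 42.9 CPM, and for T and NK cell markers, 0.0353 CPM. Obese tumor 3 after ETS, lowest for all 10 genes, had 466 CPM of macrophage markers and 3.19 CPM of T and NK cell markers, within the range of its group. Obese tumor 4 after ETS had the highest sum of macrophage markers, 1139 CPM, and was the highest of its group for 2 of the 10 genes. Without obese tumor 3 after ETS, 10 of 10 genes were called higher after ETS in obese tumors and 5 of 10 lower in lean tumors. Over all fits with 1 tumor left out, 4898 to 6639 genes were called in either direction with ETS in obese tumors. In lean tumors the numbers were 5814 to 7523. With all 16 tumors, 21.2% of genes were called higher in obese and 22.8% lower in lean tumors. Shares by direction for the fit without obese tumor 3 are not given here, so its 5 of 10 has no matched share.

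**Figure D5:**
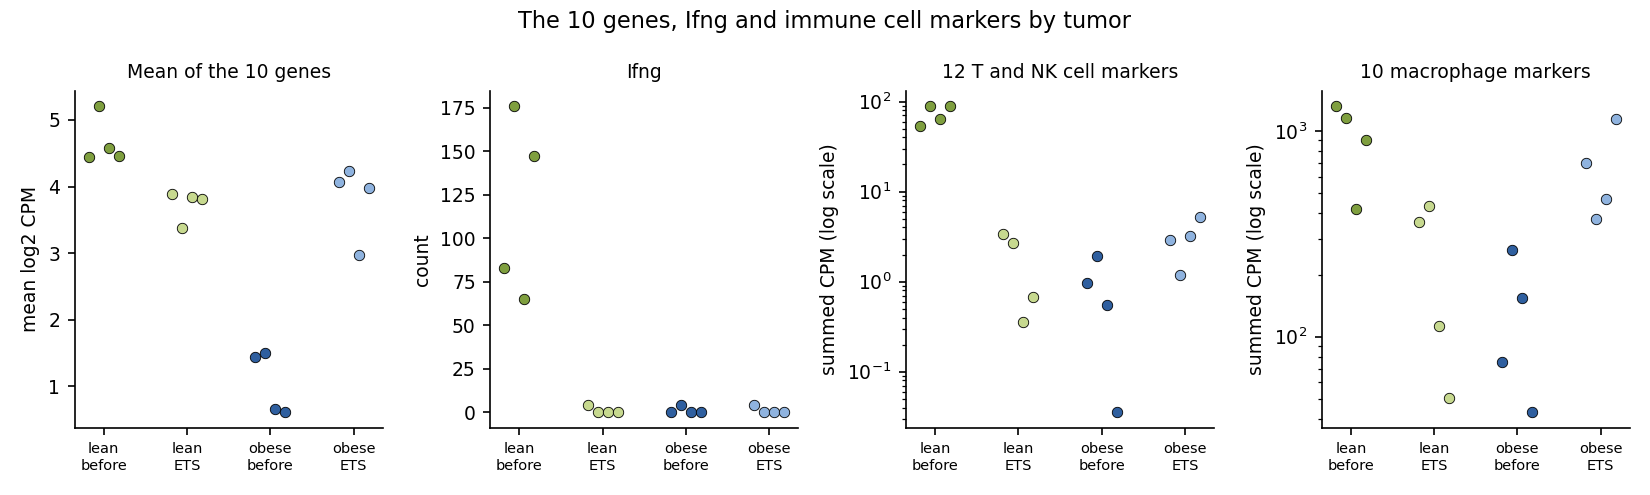
The members' mean log2 CPM, the counts of Ifng and the summed CPM of T and NK cell and of macrophage markers (log axes), with 1 point per tumor. Lean tumors after ETS had 0 to 4 counts of Ifng and at most 3.39 CPM of T and NK cell markers, and a members' mean of 3.38 to 3.89, compared with 4.44 to 5.21 in lean and 0.61 to 1.50 in obese tumors before therapy.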

How the data were processed

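RNA was sequenced from 16 B16F10 tumors, 4 per group, with the groups taken from the sample labels. The authors isolated RNA from whole tumor tissue, made stranded poly(A) libraries, trimmed the reads with Trimmomatic, aligned them to mm10 with HISAT2 2.1.0 and quantified genes with StringTie 2.1.3b. The authors deposited read counts per gene, which StringTie derives from coverage as whole numbers without normalization. The deposited TPM values per tumor were used for levels between genes and as an alternative scale, and the deposited FPKM values were not used. This counting may split or share reads of paralogs and of genes that overlap.

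Following the study's methods, genes had to have a count above 0 in every tumor, which removed 29568 of 45777 and left 16209 that were tested on the counts with edgeR 4.0.16 (R 4.3.3), by TMM scaling and the quasi-likelihood test on all 16 tumors with a mean for each group. Adjusted p-values are Benjamini-Hochberg values over all tested genes, with calls at 0.05, and standard errors are the log2 fold change divided by the root of F. CPM are TMM-scaled, and log2 CPM use a prior count of 2. The exact test of edgeR on counts plus 1, close to the study's own test, was run as an alternative beside DESeq2 1.42.0, limma 3.58.1 on log2(TPM + 1), DESeq2's size factors, other filters, only the groups compared, the replicate number as a block and each tumor left out. The tests were checked on simulated data. Depth was between 47199949 and 61655287 counts per tumor, and intervals and floors for single counts cover counting error only. No label says that tumors of a group came from separate mice, so p-values measure the spread between these samples. No pair within a group agreed within sampling noise (correlation 0.970 to 0.992). Of 45777 gene identifiers 45675 matched the RefSeq gene table of GRCm38.p6.

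The 10 genes, the gene lists and the tests were chosen with earlier results of these data known. Named genes are the 10 members, up to 4 genes per pathway list with the largest difference of ETS effects at a mean of at least 1 CPM, genes of the lists of ligands, receptors, ISG15 enzymes and neighbors, and the genes most alike by Pearson r. Ifit2 to Ifit3, Ifit3b to Ifit3 and Usp18 to Isg15 were chosen as ratios after their values were seen. The values of 1 gene of these lists are not reported here.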

Additional observations from a re-analysis of the deposited data

Results flagged for a closer look

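All 10 genes responded to ETS differently in the 2 hosts by the interaction term in edgeR's quasi-likelihood test. By that term 10.1% of all tested genes were called lower and 6.35% higher. On the log2 scale, lean minus obese, the difference was -3.41 for Ifit1, -1.36 for Ifit2, -3.97 for Ifit3, -4.17 for Ifit3b, -3.32 for Isg15, -4.16 for Usp18, -2.81 for Rsad2, -5.45 for Mx1, -3.28 for Mx2 and -5.94 for Ifi44, with adjusted p-values between 1.07e-05 and 0.001003. Of the 10 genes 3 (Ifit2, Mx1 and Ifi44) had called falls in lean tumors, a share near the 22.8% of all genes called lower there. The interaction term holds the difference between hosts before therapy, so it is not separate from that result.

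In 3 of 40 sets of 4 tumors, a tumor lay far from the other 3 of its group by Dixon's criterion, and all were lean tumors after ETS. Lean tumor 2 after ETS was far below the others for Ifit3b, at 16.02 CPM, and for Mx2, at 1.82 CPM. Lean tumor 1 after ETS was far above them for Usp18, at 16.04 CPM. Chance flags about 1 in 20 such sets.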

How the results depend on the processing

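The counts of members called in obese tumors after ETS, before therapy and for the difference of ETS effects stayed within 1.5 times their values under every alternative. In lean tumors after ETS the 3 falls became 8 with limma on log2(TPM + 1), by which 44.9% of all genes fell. They became 4 with DESeq2 and 4 with the exact test on counts plus 1, which called 3789 and 3709 of 16209 genes lower. The number was 5 when other groups were left out of the fit (22.9% of all genes), and 3 to 5 with a tumor left out. Without obese tumor 3 after ETS, a tumor outside that comparison that enters the shared spread, there were 5. The fits with a tumor left out called 5814 to 7523 of all genes in either direction in lean tumors, and their shares by direction are not given here. After ETS, obese against lean, DESeq2 called 1 gene (Mx1) in place of 0, and with a tumor left out the count was 0 to 0.

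With the replicate number as a block 4 genes fell in lean tumors, 10 rose in obese tumors, and 10, 10 and 0 were called before therapy, for the difference and after ETS. Of all 16209 genes, that fit called 4047 lower in lean and 3643 higher in obese tumors with ETS. It called 2356 lower in obese tumors before therapy, 1791 lower for the difference, and 882 higher and 801 lower after ETS. The block changed the sign of differences near 0 after ETS, giving -0.081 for Usp18 and -0.012 for Rsad2. Whether the numbers pair the tumors was not settled. Deviations of same-numbered tumors correlated with r from -0.11 to 0.45 over 24 pairs, with a median of 0.07. Those of other-numbered tumors ran from -0.58 to 0.51 over 72 pairs, with a median of -0.04, so not every tumor was most like its own number.

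Leaving out a tumor changed the sign only of values near 0. In lean tumors Ifit1 ran from -0.26 to 0.13. After ETS, obese against lean, Ifit2 ran from -0.015 to 0.13, Ifit3 from -0.35 to 0.041, Usp18 from -0.23 to 0.34, Rsad2 from -0.11 to 0.19 and Ifi44 from -0.12 to 0.37. The causes were not tested. With 4 tumors per group, differences between hosts after ETS within the printed intervals were not excluded.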
